A study of Homo sapiens with 12 samples.

Results

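The comparison set 4 cultures of human mammary epithelial acini kept in 5-aza-2'-deoxycytidine (Aza) against 4 cultures kept in vehicle, 8 of the 12 arrays of the series, each Aza culture being paired with the vehicle culture of the same replicate number. The other 4 arrays came from acini kept in 18-alpha-glycyrrhetinic acid (AGA), an inhibitor of gap junctions, and served to estimate the spread. All cells were HMT-3522 S1, an established non-neoplastic breast epithelial line at passages 55 to 60, so that no group differs from another in genotype. They were grown on and under a laminin-rich gel (5% Matrigel in the medium) for 8 days with epidermal growth factor and a further 48 h without it, conditions under which S1 cells form hollow spheres called acini. Both drugs were given at 10 µM from the day of plating for 10 days, with fresh medium every 2 days, and the labels class the vehicle acini as polarized and the Aza acini as not polarized. The stated purpose was to find genes that respond to a change in apical polarity.

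5-aza-2'-deoxycytidine (decitabine) is a cytidine analogue that is built into DNA during replication and traps DNA methyltransferases there. Cells that go on dividing then lose methylation at CG dinucleotides, the methylated sites of mammalian DNA, and genes whose promoters were silenced by methylation can be read again. Genes often followed for this are germline genes, imprinted genes, tumour suppressors and interferon-stimulated genes. DNA methylation itself was not measured here.

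Each array held 22215 probe sets after its 62 control probe sets were left out. A probe set is a group of short oligonucleotides read together, and some match several transcripts or genes. A single gene symbol was carried by 19064 probe sets. Levels are log2 of the deposited intensity after quantile normalization, so that a difference of 1 is a doubling and a level of 0 is the floor set at an intensity of 1. The median deposited intensity lay between 29.7 and 36.2 on the vehicle arrays and between 25.6 and 31.2 on the Aza arrays. The vehicle acini carried basal epithelial markers at high levels, with means of 12.45 for KRT5 and 12.09 for KRT14, beside 7.97 for the epithelial cadherin CDH1 and 12.06 for vimentin (VIM). The luminal keratins KRT18 and KRT8 averaged 7.75 and 7.38 in vehicle acini, while the luminal keratin KRT19 was at 0.00 in both groups. EPCAM, an epithelial marker, was near the floor at 0.79 in vehicle acini. Arrays with the same replicate number resembled each other: over probe sets at or above the median level the deviations of paired vehicle and Aza arrays from their group means correlated at 0.44 to 0.78, against at most 0.12 for arrays with different numbers. The series calls the replicates biological and the labels say no more of how the cultures were kept apart, so p-values measure the spread between cultures of 1 line.

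One probe set passed the test. With limma, fitted to all 12 arrays with the replicate number as a block, 1 of 22215 probe sets had a Benjamini-Hochberg adjusted p under 0.05 (0.0045%). It was TSC2 (probe set 215735_s_at). At an unadjusted p under 0.05 there were 1434 probe sets (6.46%), of which 739 (3.33%) were higher and 695 (3.13%) lower in Aza acini. The 4 Aza values lay above all 4 vehicle values for 188 probe sets (0.846%) and below them for 195 (0.878%), 1.72% together. Aza was above its vehicle partner in 4 of 4 pairs for 1693 probe sets (7.62%) and below it for 1582 (7.12%), 14.7% together. Differences of the other genes described here are therefore given as values, and none of them passed the adjusted threshold.

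**Figure D1:**
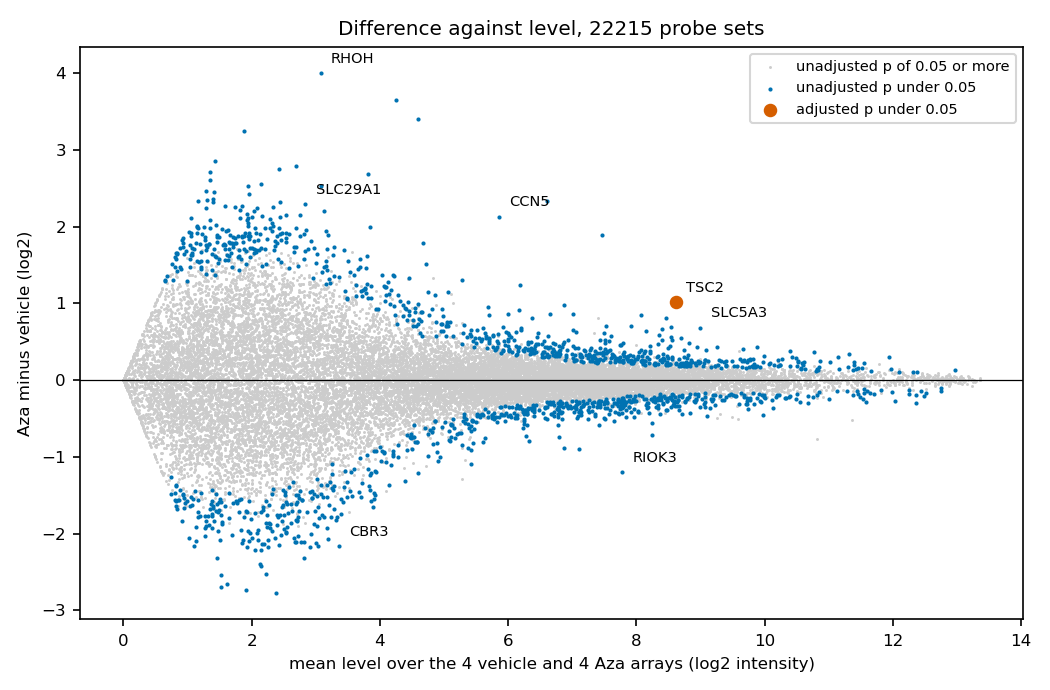
The difference between Aza and vehicle acini (log2, vertical axis) is plotted against the mean level over the 8 arrays (log2 intensity, horizontal axis) for 22215 probe sets. Grey points have an unadjusted p of 0.05 or more, blue points are the rest, and the orange point is TSC2, the 1 probe set past the adjusted threshold. The spread is widest below a level of about 4, where RHOH and SLC29A1 lie.

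TSC2 encodes tuberin, which with TSC1 forms the complex that switches off the small GTPase RHEB and so restrains the growth kinase mTORC1. Its level was 7.78, 7.42, 8.24 and 8.98 in vehicle replicates 1 to 4 and 9.33, 8.29, 9.19 and 9.68 in the Aza cultures of the same numbers. Each Aza culture was higher than its vehicle partner, although the groups overlapped when the pairing was set aside, since vehicle replicate 4 exceeded Aza replicate 2. TSC2 rose by 1.02 ± 0.13 (SE of the limma fit) on the log2 scale, 2.03-fold, with a limma adjusted p of 0.00815 (4 pairs). This SE, like every value after ± here, draws on the spread over all 12 arrays and not on the 4 pair differences alone. In AGA acini the levels were 7.42, 7.07, 7.91 and 8.72, and Aza exceeded AGA by 1.34 ± 0.13 (limma adjusted p = 0.000172), 1 of 191 probe sets (0.86%) called in that contrast. The second TSC2 probe set, 215624_at, was dim, with 1.27, 1.15, 0.00 and 3.63 in vehicle and 0.10, 3.12, 3.14 and 3.57 in Aza acini, and differed by 0.97 ± 0.79 (adjusted p = 0.889). Its groups overlapped widely, so the rise stands on 1 probe set. The partner gene TSC1 differed by -0.16 ± 0.11. The sign of the TSC2 difference was the same in 25 of 25 other settings, between 0.84 and 1.13, and 14 of them called it. In settings that altered only the model, the adjustment or the AGA arrays, the difference stayed at 1.02, so its sign could not change. The 14 include settings that only left out an AGA array. They also include Holm's adjustment, which gave this lowest p-value the same adjusted p. The call was lost without the replicate block (adjusted p = 1.00), without the variance trend (0.712), on the deposited scale (0.0853) and with a floor of 16 (0.741). It was also lost without vehicle replicate 1 (0.149), vehicle replicate 3 (0.0698), vehicle replicate 4 (0.0517) or Aza replicate 3 (0.0723), and without all arrays of replicate 2 (0.0633) or replicate 3 (0.228).

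The promoters of TSC2 and of SLC5A3 and S100P, a pair of genes with high levels and low p-values in the comparison, together with that of the nucleoside transporter gene SLC29A1, are shown because CG dinucleotides are where the drug acts. The sequences are the bases before each gene's first listed start in RefSeq (GRCh38.p14, all on the + strand), with every CG in capitals. For TSC2 it is the 150 bases at chr16:2047835-2047984, which reach back to the start of the divergent gene NTHL1. The others are 250 bases, at chr21:34073328-34073577 for SLC5A3, chr4:6693628-6693877 for S100P and chr6:44219365-44219614 for SLC29A1.
TSC2: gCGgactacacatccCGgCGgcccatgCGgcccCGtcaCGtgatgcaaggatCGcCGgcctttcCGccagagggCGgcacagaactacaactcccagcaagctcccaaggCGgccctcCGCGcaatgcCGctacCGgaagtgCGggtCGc
SLC5A3: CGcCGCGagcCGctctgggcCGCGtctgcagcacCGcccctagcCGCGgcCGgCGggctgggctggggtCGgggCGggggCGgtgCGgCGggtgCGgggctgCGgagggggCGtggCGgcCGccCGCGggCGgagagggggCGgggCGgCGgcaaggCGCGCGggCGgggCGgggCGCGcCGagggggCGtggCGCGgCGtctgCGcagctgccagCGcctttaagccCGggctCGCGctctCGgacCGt
S100P: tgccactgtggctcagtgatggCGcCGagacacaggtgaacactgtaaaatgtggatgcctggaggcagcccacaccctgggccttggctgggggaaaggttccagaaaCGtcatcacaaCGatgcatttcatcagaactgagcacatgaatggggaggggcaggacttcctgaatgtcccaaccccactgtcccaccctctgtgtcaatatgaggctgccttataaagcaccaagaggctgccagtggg
SLC29A1: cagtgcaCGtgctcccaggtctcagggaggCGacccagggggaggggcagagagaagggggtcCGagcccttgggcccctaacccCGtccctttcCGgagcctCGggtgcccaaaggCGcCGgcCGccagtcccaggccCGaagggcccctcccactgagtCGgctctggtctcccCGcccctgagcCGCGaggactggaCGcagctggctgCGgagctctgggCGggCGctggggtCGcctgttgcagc
They hold 17, 46, 4 and 19 CG. The motif searched was CG, which reads the same on both strands, and 93.9% of the 35116 listed windows held it at least once in the 250 bases before the start (89.1% in the nearest 150). SLC5A3 shares this start with MRPS6, a mitochondrial ribosomal protein gene, and has more CG in its 300-base window than 98.9% of the measured protein-coding genes that have an entry. The same share is 89.4% for TSC2 and 72% for SLC29A1, each by the mean over its listed starts, and 10.4% for S100P.

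SLC5A3, the sodium-dependent myo-inositol transporter, had 3 probe sets with low p-values in the same direction. Probe set 213164_at read 8.24, 8.87, 8.45 and 9.06 in vehicle and 9.14, 9.31, 9.46 and 9.46 in Aza acini. All 4 Aza values lay above all 4 vehicle values. The difference was 0.69 ± 0.11, with a limma adjusted p of 0.061. Probe set 212944_at read 7.73, 8.23, 8.10 and 8.16 against 9.15, 8.63, 9.05 and 8.66, again without overlap, and differed by 0.81 ± 0.14 (adjusted p = 0.108). The dimmer 213167_s_at differed by 1.18 ± 0.39. Left-out arrays moved the difference of 213164_at between 0.56 and 0.78, and it was called on median-centred arrays and without AGA replicate 3 or Aza replicate 2. Aza and AGA acini were not told apart for 213164_at (0.40 ± 0.11, adjusted p = 0.119).

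S100P, a calcium-binding protein of the S100 family, read 6.13, 5.59, 6.93 and 6.86 in vehicle acini. In Aza acini it read 7.45, 6.07, 8.09 and 7.84. Every pair was higher with Aza, while the groups overlapped, with replicate 2 the lowest in both. The difference was 0.98 ± 0.17 (limma adjusted p = 0.108), and Aza exceeded AGA by 0.99 ± 0.17 (adjusted p = 0.0108). Without vehicle replicate 2 or AGA replicate 3 the Aza to vehicle difference passed the threshold.

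KIZ, which encodes the centrosomal protein kizuna, was among the lowest p-values, with 8.09, 8.31, 7.61 and 8.22 in vehicle and 8.71, 8.76, 8.42 and 8.70 in Aza acini. The groups did not overlap, and vehicle replicate 3 was the lowest array. The difference was 0.59 ± 0.09 (adjusted p = 0.061), and that between Aza and AGA was 0.71 ± 0.09 (adjusted p = 0.0016). RHOH, another of the lowest p-values, read 0.54, 2.29, 1.48 and 0.00 in vehicle, at or near the floor, and 5.90, 4.38, 5.63 and 4.41 in Aza acini. The difference was 4.00 ± 0.63 (adjusted p = 0.061), and it was called in 5 of 24 other settings, among them the deposited scale. The size rests on values near the floor, and with a floor of 16 it was 1.08. Of the 24 leukocyte markers listed, RHOH included, 22 were measured and all 22 lay below the median probe set in vehicle acini. Their differences were above 0 for 7 of 22, and none was at the floor on all 8 arrays. Their summed linear intensity, with RHOH in the sum, was 133 to 167 on vehicle and 147 to 199 on Aza arrays. PTPRC, the pan-leukocyte marker, averaged 0.94 and 1.89. The sums hold the RHOH difference itself, so they do not show how the other markers differed. Their part in the RHOH difference was not tested. In RNA from whole cultures, a change in the number of cells of a type and in RNA per cell cannot be told apart.

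**Figure D2:**
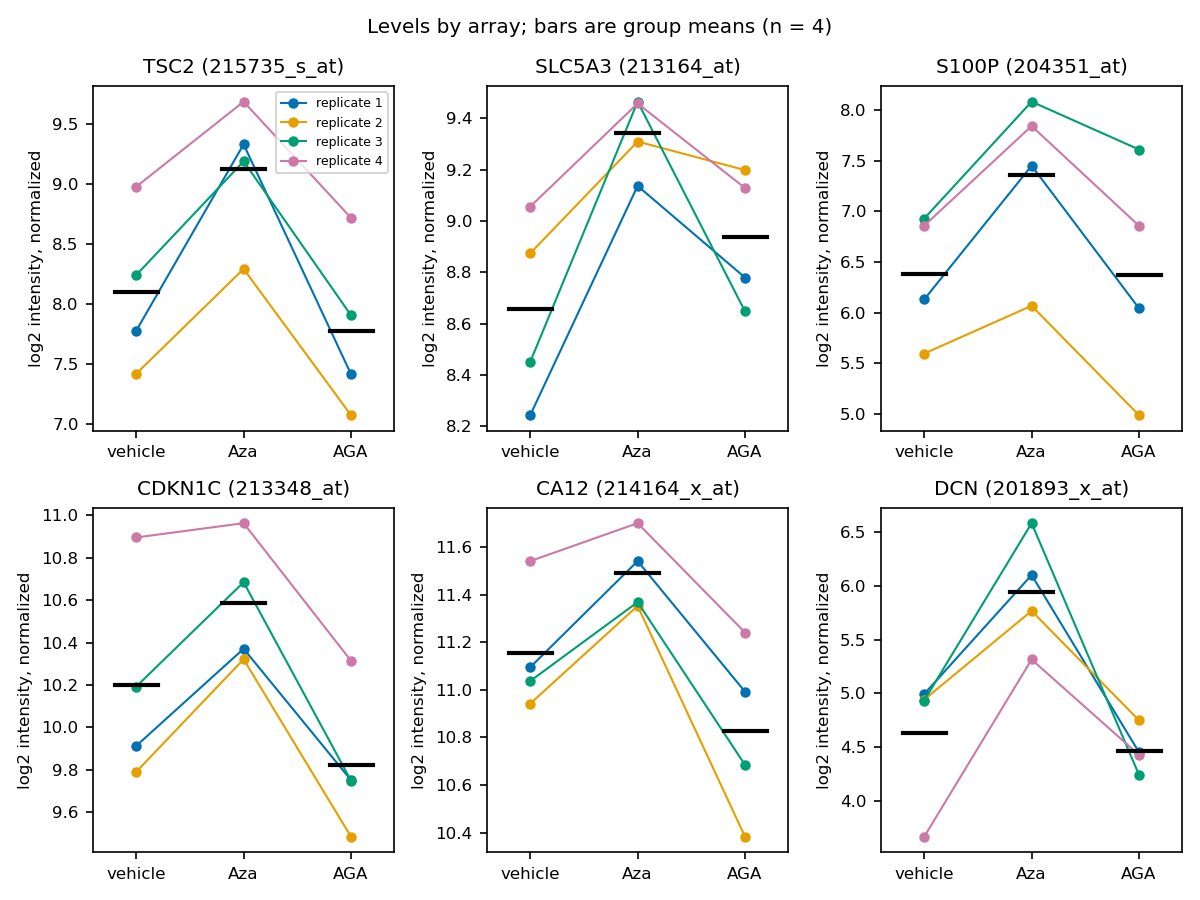
Levels (log2 intensity, vertical axis) of 6 probe sets are plotted for vehicle, Aza and AGA acini, with lines joining arrays of the same replicate number and black bars at the group means (n = 4). Aza is above vehicle in 4 of 4 pairs in each panel. For TSC2 the replicate 1 line climbs from 7.78 to 9.33, and for CDKN1C replicate 4 lies highest in every group.

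Among probe sets at or above the median level that had an unadjusted p under 0.05 and 1 direction in all 4 pairs, the 12 genes with the largest positive differences ran from 0.81 to 2.13. Their 4 Aza values lay above all vehicle values for 4 of the 12, beside 0.846% of all probe sets. Against AGA acini 4 of the 12 differed at a limma adjusted p under 0.05, beside 0.86% of all probe sets. The 12 genes were picked by the same Aza arrays that both counts use, so neither count is independent support. Beside TSC2, SLC5A3 and S100P they included the matrix proteoglycan decorin (DCN), the cell-surface proteins PSCA and KCNG1, the ion-pump regulator FXYD3, the lipid-droplet protein CIDEC and the calcium-binding protein S100A4. PSCA, prostate stem cell antigen, read 4.73, 4.14, 4.95 and 4.18 in vehicle and 5.91, 5.57, 5.83 and 5.27 in Aza acini, and differed by 1.14 ± 0.24 (adjusted p = 0.288). KCNG1, a modifying subunit of voltage-gated potassium channels, read 5.43, 5.77, 6.18 and 5.50 against 6.78, 6.64, 6.67 and 6.45, a difference of 0.91 ± 0.19. Neither gene's groups overlapped. The dim KCNG1 probe set 211053_at differed by -0.40. FXYD3 differed by 0.87 ± 0.28 on 1 probe set and 0.51 ± 0.17 on another. S100A4 read 7.20, 7.59, 7.86 and 7.93 in vehicle and 8.63, 7.84, 8.66 and 8.86 in Aza acini (0.85 ± 0.24), with overlap through Aza replicate 2. CCN5, a secreted matricellular protein, differed by 2.13 ± 0.75, with vehicle replicate 2 at 1.33 beside 5.43 to 6.83 in the other vehicle cultures, and by 1.21 without vehicle replicate 2. The remaining values were 0.93 for the mitochondrial ribosome GTPase MTG1 (0.60 without Aza replicate 4) and 0.95 for the transcribed pseudogene locus DTX2P1-UPK3BP1-PMS2P11 (0.31 without vehicle replicate 2), whose sequence has near-identical copies.

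DCN read 4.99, 4.94, 4.93 and 3.67 in vehicle and 6.10, 5.77, 6.58 and 5.32 in Aza acini with probe set 201893_x_at, which can cross-hybridise. The groups did not overlap, and replicate 4 was lowest in both. The difference was 1.31 ± 0.28 (limma adjusted p = 0.288), and Aza exceeded AGA by 1.47 ± 0.28 (adjusted p = 0.0162). Probe sets 211813_x_at and 211896_s_at gave 1.23 ± 0.40 and 0.89 ± 0.38, while 209335_at gave -0.17 ± 0.64. Of the fibroblast markers, DCN included, 16 of 17 were measured and 7 of 16 differences were above 0. At an unadjusted p under 0.05, 4 of 16 were higher and none lower, beside 3.81% and 3.19% of all genes. DCN was 1 of those 4. It is also part of the summed intensity, which was 331 to 491 on vehicle and 341 to 683 on Aza arrays. POSTN differed by 1.99 ± 0.66, by 0.90 without replicate 3 and by -0.62 on its other probe set. COL6A3 differed by 1.92 ± 0.79, but by 0.00 with a floor of 16. Of the fibrillar collagen genes, the bright COL1A1 differed by 0.08 ± 0.12, while the dim COL1A2 and COL3A1 differed by -1.03 ± 0.68 and -0.93 ± 1.01 and LUM was at 0.37 and 0.22. Their part in the DCN difference was not tested. CIDEC, which promotes fat storage in lipid droplets, read 5.96, 5.30, 6.28 and 7.36 against 7.20, 5.36, 7.70 and 8.09 (0.86 ± 0.22). It was higher than in AGA acini by 1.49 ± 0.22 (adjusted p = 0.00375). The endothelial and adipocyte markers, CIDEC included, had 10 of 16 differences above 0 and summed to 357 to 490 on vehicle and 447 to 645 on Aza arrays, ADIPOQ averaged 2.60 and 2.76, and their part was not tested.

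The 12 genes with the largest negative differences, picked in the same way, ran from -1.20 to -0.79. For 8 of the 12 all Aza values lay below all vehicle values, beside 0.878% of all probe sets. Picking large falls with every pair lower favours such a gap, so the count is not independent support. RIOK3, an atypical RIO kinase, read 8.38, 8.27, 8.59 and 8.28 in vehicle and 7.20, 7.54, 7.48 and 6.49 in Aza acini. Its highest Aza value, in replicate 2, was below its lowest vehicle value. The difference was -1.20 ± 0.32 (limma adjusted p = 0.592), and the fit on the 8 vehicle and Aza arrays alone called it. The other RIOK3 probe sets 202129_s_at, 202130_at and 215588_x_at, with vehicle levels of 8.24, 9.75 and 8.88, differed by -0.16, 0.09 and -0.01. FAT2, an atypical cadherin of epithelial cell edges, read 5.72, 7.08, 6.21 and 4.83 against 4.26, 6.74, 5.03 and 3.46, with every pair lower and the groups overlapping. It differed by -1.09 ± 0.22 (adjusted p = 0.28), and Aza minus AGA was -1.36 ± 0.22 (adjusted p = 0.00705). The transcription factor KLF15 read 5.36, 5.46, 5.41 and 5.53 in vehicle and 4.52, 3.66, 4.77 and 4.59 in Aza acini, without overlap (-1.05 ± 0.28). ACSL4, which activates long-chain fatty acids, read 5.96, 5.95, 6.08 and 6.07 against 5.50, 4.92, 5.68 and 4.72 (-0.81 ± 0.20). POLR3F, a subunit of RNA polymerase III, differed by -0.79 ± 0.21, and MED13L, of the Mediator kinase module, by -0.84 ± 0.21. Neither gene's groups overlapped. The other MED13L probe sets 212208_at, 212209_at and 216109_at, with vehicle levels of 6.82, 7.40 and 5.75, differed by -0.27, -0.09 and -0.11. The rest were CACNG4 (-0.94, and -0.61 without vehicle replicate 3), the metalloprotease gene TLL1 (-0.91), EVA1B (-0.89), ARHGAP32 (-0.83), the matrix protein gene THBS1 (-0.82) and mevalonate kinase, MVK (-0.79, and -0.51 without Aza replicate 3). On other probe sets EVA1B differed by -0.05, ARHGAP32 by 0.16, CACNG4 by 0.05 and MVK by 0.02 and -0.22. Those of THBS1 gave -0.75, -0.89, -0.57 and -0.01. Of the 7 of these 12 genes with further probe sets, those agreed in sign for 3, against 4 of 6 among the positive genes.

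The lowest p-values among negative differences belonged to a probe set without a single gene symbol (201624_at, -0.71 ± 0.13), FAT2, NAP1L1, LAMB1 and CBR3. LAMB1, the laminin beta 1 chain of basement membranes, read 11.87, 12.16, 12.08 and 12.55 in vehicle and 11.58, 11.98, 11.79 and 12.21 in Aza acini. Every pair was lower and the groups overlapped, with a difference of -0.27 ± 0.06 (adjusted p = 0.28). NAP1L1, a histone chaperone, differed by -0.28 ± 0.06 on its lowest-p probe set, and its 4 probe sets with an unadjusted p under 0.05 ran from -0.28 to -0.18. CBR3, a carbonyl reductase, read 4.72, 4.64, 4.39 and 4.02 in vehicle and 0.76, 3.36, 3.91 and 1.08 in Aza acini, lowest in Aza replicates 1 and 4. It differed by -2.16 ± 0.50, and by -2.69 ± 0.50 between Aza and AGA (adjusted p = 0.0144). With a floor of 16 the Aza to vehicle difference was -0.46.

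Of the 4310 genes with 2 or more probe sets, 23 had 2 or more higher at an unadjusted p under 0.05. Another 32 entries had 2 or more lower. Over all probe sets 3.33% were higher and 3.13% lower at that threshold. The genes below were chosen because such probe sets shared a sign, so that agreement is not independent support. CDKN1C, the imprinted cyclin-dependent kinase inhibitor p57, read 9.91, 9.79, 10.19 and 10.89 in vehicle and 10.37, 10.32, 10.68 and 10.96 in Aza acini with 213348_at. All 4 pairs were higher, by the least in replicate 4, whose vehicle array was the highest. The difference was 0.39 ± 0.08 (limma adjusted p = 0.288), with 0.47, 0.30 and 0.28 on further probe sets and -0.55 on the dim 219533_at. Aza exceeded AGA by 0.76 ± 0.08 (adjusted p = 0.000427). CA12, the membrane carbonic anhydrase XII, had 4 probe sets between 0.30 and 0.41. Probe set 214164_x_at read 11.09, 10.94, 11.04 and 11.54 against 11.54, 11.35, 11.37 and 11.70, and Aza exceeded AGA by 0.67 ± 0.07 (adjusted p = 0.000599). NID1, the basement membrane linker nidogen 1, read 7.27, 6.96, 6.13 and 9.94 against 8.14, 7.34, 7.50 and 10.13, with replicate 4 far above the others in both groups, and differed by 0.70 ± 0.19 (0.43 without Aza replicate 3). PTGDS, a prostaglandin D2 synthase, read 1.60, 3.93, 1.59 and 2.58 in vehicle and 8.02, 5.71, 8.08 and 2.50 in Aza acini with 212187_x_at. Aza replicates 1 and 3 were high and Aza replicate 4 lay within the vehicle values. Its 3 probe sets differed by 3.65, 3.41 and 1.79, and 1 of them was called without replicate 4. The paraoxonase gene PON2 (0.45 and 0.32), RHOBTB3 (0.61 and 0.37) and NF2, which encodes merlin, completed the positive genes named by this rule. The 2 NF2 probe sets differed by 2.32 and 1.67 but were dim, with 0.06 and 0.00 at a floor of 16. The brightest NF2 probe set, 218915_at, differed by 0.06, and 4 others ran from -0.87 to 0.79. On the negative side, KRT10, a keratin of differentiating squamous epithelium, differed by -0.29, -0.21 and -0.14 on 3 probe sets. ALDH3A2, a fatty aldehyde dehydrogenase, differed by -0.31, -0.26 and -0.23. The secreted protein gene DKK3 (-0.36 and -0.28), the SUMO ligase gene PIAS1 (-0.40 and -0.27) and SCAMP1 (-0.74 and -0.41) were also lower. RAP2C (-0.38 and -0.28), SEMA4C (-1.20 and -0.42) and the dim aggrecan gene ACAN (-1.83 and -1.44) made up the rest. With a floor of 16 the ACAN values were -0.25 and -0.24. Further probe sets, not chosen by this rule, differed by 0.17 and 0.23 for CA12 and by -0.02 and -0.02 for RHOBTB3. They differed by -0.01, -0.42 and -0.33 for DKK3, by -0.10 for PIAS1 and by -1.01 for ACAN. For SCAMP1 they gave -0.15, -0.09 and 0.29, so its probe sets disagreed in sign.

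SLC29A1 encodes the equilibrative nucleoside transporter ENT1, which carries nucleosides and their drug analogues into cells. Probe set 201802_at read 1.46, 1.87, 1.96 and 1.45 in vehicle and 3.90, 4.21, 3.80 and 4.02 in Aza acini, a narrow spread in both groups and no overlap. The difference was 2.30 ± 0.54 (limma adjusted p = 0.379), and a fit with neither block nor variance trend called it (adjusted p = 0.0287). All these values are dim, and with a floor of 16 the difference was 0.06. AGA acini read 3.25, 3.15, 4.30 and 3.43, which overlapped the Aza values. The brighter SLC29A1 probe set 201801_s_at differed by 0.01 ± 0.57, and the difference between the probe sets was not tested.

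For gene groups, 1 probe set per gene was used, the brightest, which gave 11963 genes. Of these, 987 (8.25%) were higher and 873 (7.3%) lower in 4 of 4 pairs, 456 (3.81%) were higher and 382 (3.19%) lower at an unadjusted p under 0.05, and the median difference was 0.00. The groups were 37 lists of genes, described by counts beside these shares. In no list did a gene other than TSC2 pass the adjusted threshold.

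The enzymes and readers of DNA methylation, the machinery that the drug engages, were measured for 15 of 20 genes. Their median difference was -0.16, 3 of 15 were above 0, none was higher and 2 were lower in 4 of 4 pairs. Over all genes 50.2% were above 0, and 8.25% were higher and 7.3% lower in 4 of 4 pairs. The median of the list was -0.06 with a floor of 16, and -0.18 to -0.05 when 1 array or pair was left out. In vehicle acini 6 of the 15 lay below the median probe set. DNMT1, the maintenance methyltransferase, read 6.57, 6.25, 6.60 and 6.93 in vehicle and 6.56, 6.25, 6.74 and 5.70 in Aza acini. Aza replicate 4 was low and the other arrays of both groups overlapped, for a difference of -0.28 ± 0.21 (limma adjusted p = 0.873), and of 0.05 without Aza replicate 4. DNMT3A and DNMT3B, which set new methylation, differed by -0.41 ± 0.90 and -0.16 ± 0.30. DNMT3L, a cofactor of those enzymes, had an unadjusted p under 0.05 and was at the floor in Aza replicates 1 and 4 (-1.54 ± 0.72, but 0.00 with a floor of 16).

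Genes that methylation commonly silences are given by counts, to be read beside the 8.25% of all genes that were higher and the 7.3% that were lower in 4 of 4 pairs. Of 31 germline genes measured, all 31 lay below the median probe set in vehicle acini, none was higher and 2 were lower in 4 of 4 pairs. Agreement of 4 pairs in either direction was rarer among dim probe sets, at 9.47% in the dimmest of 4 equal groups against 20.5% in the brightest. The germline median was -0.25, but 0.01 without replicate 4 and 0.00 with a floor of 16. The lowest p among them was that of PRAME (-2.18 ± 0.74, but 0.00 with a floor of 16). Of 26 imprinted genes 1, CDKN1C, was higher and 2 were lower in 4 of 4 pairs, with a median of 0.00. Of 32 tumour suppressor genes with promoters known to be methylated in cancer 1 was higher, again CDKN1C, and 5 were lower, with a median of 0.05. On the deposited scale, where the median of all genes was -0.06, theirs was -0.01. Of 42 interferon-response genes 3 were higher and 4 lower, with a median of 0.03. BST2, which tethers virus particles, differed by 0.26 ± 0.11, and IFIT1, an RNA-binding antiviral protein, by -0.48 ± 0.19. Of 18 genes of MHC class I presentation 2 were higher and 2 lower, with a median of 0.02.

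**Figure D3:**
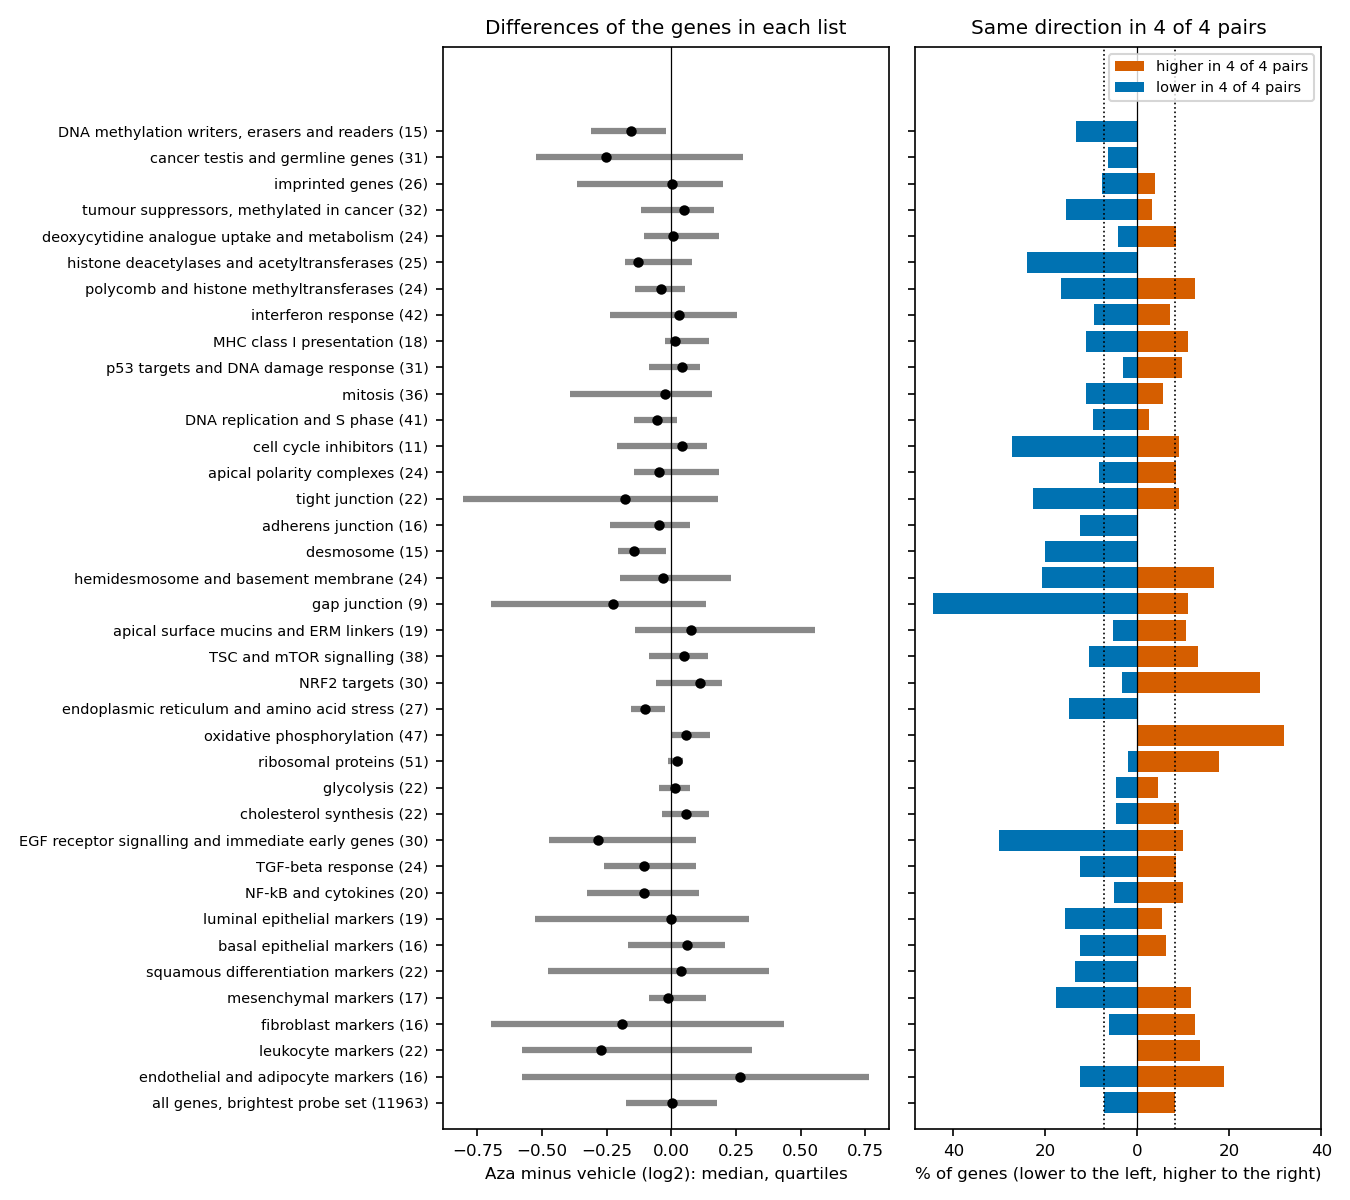
On the left, black points and grey bars give the median and quartiles of the difference between Aza and vehicle acini (log2) over the genes of each list, with the number of genes measured in brackets. On the right, bars give the percentage of those genes higher (orange) or lower (blue) in 4 of 4 pairs, with dotted lines at the shares over all genes (8.25% and 7.3%). Oxidative phosphorylation has the longest bar to the right and no bar to the left.

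Nuclear-encoded subunits of oxidative phosphorylation, the mitochondrial chain that makes ATP, were higher in 4 of 4 pairs for 15 of 47 genes and lower for none. The difference was above 0 for 35 of 47, the median was 0.06, and the median within each of the 4 pairs was 0.08. At an unadjusted p under 0.05, 11 were higher and none lower, beside 3.81% and 3.19% of all genes. In 4 of 4 pairs, 8.25% of all genes were higher and 7.3% lower. COX6C, a subunit of cytochrome c oxidase, read 10.96, 10.71, 11.07 and 10.90 in vehicle and 11.21, 11.04, 11.29 and 11.05 in Aza acini, higher in every pair with overlapping groups (0.24 ± 0.06, limma adjusted p = 0.504). NDUFB1, of complex I, read 10.40, 10.39, 10.53 and 10.63 against 10.75, 10.48, 10.73 and 10.94 (0.24 ± 0.06). NDUFA1 differed by 0.31 ± 0.11 and COX5A by 0.19 ± 0.07. None of these passed the adjusted threshold. The count at an unadjusted p under 0.05 was 5 to 11 when 1 array or pair was left out, 9 without replicate 4, and 0 on the deposited scale, where the median was 0.02 against -0.06 over all probe sets. These genes are bright, and 20.5% of the brightest of 4 equal groups of probe sets had 1 direction in 4 of 4 pairs.

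**Figure D4:**
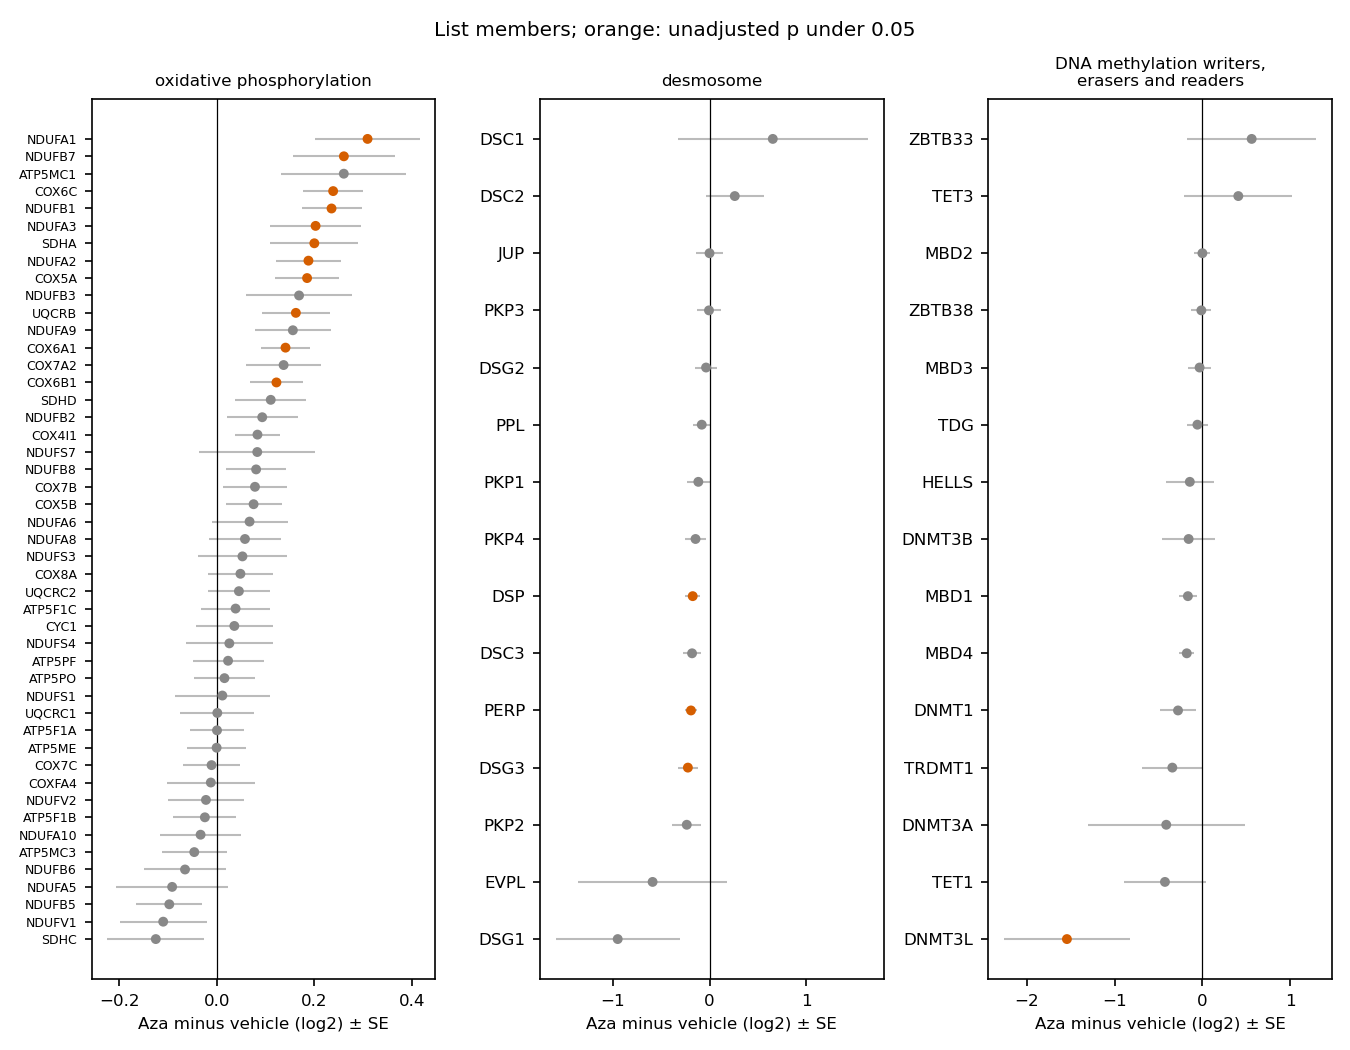
Differences between Aza and vehicle acini (log2, points) with their standard errors (bars) are shown for the measured genes of 3 lists, orange where the unadjusted p is under 0.05. Most oxidative phosphorylation genes lie to the right of 0 and most desmosome and DNA methylation genes to the left, with wide bars for dim genes such as DNMT3L.

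In the cell junction and polarity lists, differences were above 0 for 2 of 15 desmosome, 3 of 9 gap junction, 9 of 22 tight junction, 7 of 16 adherens junction, 10 of 24 hemidesmosome and basement membrane and 11 of 24 apical polarity complex genes, beside 50.2% of all genes. Of the 15 desmosome genes, which anchor keratin filaments at cell contacts, none was higher and 3 lower in 4 of 4 pairs, with a median of -0.14. Over all genes 8.25% were higher and 7.3% lower in 4 of 4 pairs, for this and the next lists. PERP, a desmosomal membrane protein, read 9.98, 10.33, 10.17 and 10.78 in vehicle and 9.72, 10.20, 9.96 and 10.61 in Aza acini (-0.19 ± 0.07, limma adjusted p = 0.67). The plaque protein gene DSP differed by -0.17 ± 0.08 and the cadherin gene DSG3 by -0.22 ± 0.11. Within the pairs the desmosome median was -0.18, -0.19, -0.22 and 0.04, so replicate 4 did not share the direction. CDH1, the cadherin of adherens junctions, read 7.76, 8.76, 8.25 and 7.12 against 7.59, 8.46, 8.16 and 6.52, lower in every pair with overlapping groups (-0.29 ± 0.11, adjusted p = 0.711). GJA1, the main connexin of gap junctions, was likewise lower in every pair (-0.23 ± 0.09) and was 1 of 4 lower in 4 of 4 pairs among the 9 gap junction genes measured, 7 of which lay below the median probe set. Of 24 apical polarity complex genes 2 were higher and 2 lower in 4 of 4 pairs, with a median of -0.05. LIN7B, of the Crumbs complex, differed by 0.47 ± 0.18 (0.19 without replicate 1) and PARD3, the scaffold of the Par complex, by -0.23 ± 0.10. The PARD3 probe sets disagreed in sign: 221527_s_at and 221526_x_at differed by -0.36 and -0.25, but 221280_s_at by 0.44, higher in 4 of 4 pairs. Of 22 tight junction genes 2 were higher and 5 lower. None was at an unadjusted p under 0.05, beside 7% of all genes, and 18 of the 22 lay below the median probe set. Of 24 hemidesmosome and basement membrane genes 4 were higher, NID1 among them, and 5 lower, LAMB1 among them. Among apical mucins and their linkers, MUC2 (2.79 ± 0.67) and MUC4 (2.71 ± 0.67) were dim, and with a floor of 16 they differed by 0.27 and 0.00. MUC4 was at the floor on all 4 vehicle arrays. MSN, the cytoskeletal linker moesin, differed by -0.43 ± 0.12.

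EGF receptor signalling and immediate early genes were lower in 4 of 4 pairs for 9 of 30 and higher for 3, beside 7.3% and 8.25% of all genes. Their median was -0.28. Leaving out 1 array or pair moved this median between -0.39 and -0.12. KLF6, an early-response transcription factor, differed by -0.32 ± 0.10, and by -0.02 and -0.44 on its probe sets 208960_s_at and 211610_at. SPRY2, a feedback inhibitor, differed by -0.38 ± 0.14 and the receptor gene ERBB2 by 0.48 ± 0.18. Histone deacetylases and acetyltransferases were lower in 4 of 4 pairs for 6 of 25 genes and higher for none, with a median of -0.13. In vehicle acini 3 of these 25 lay below the median probe set. In the brightest of 4 equal groups of probe sets, 20.5% had 1 direction in 4 of 4 pairs. EP300, the acetyltransferase p300, read 6.97, 6.87, 6.70 and 6.75 in vehicle and 6.26, 6.26, 6.53 and 6.25 in Aza acini. All 4 Aza values lay below all vehicle values, for a difference of -0.50 ± 0.14 (limma adjusted p = 0.55). Its close relative CREBBP differed by -0.27 ± 0.10, and the acetyltransferase genes KAT8 and NCOA1 by -0.39 ± 0.13 and -0.42 ± 0.14.

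NRF2 targets, the antioxidant response, were higher in 4 of 4 pairs for 8 of 30 genes and lower for 1, with a median of 0.11. Over all genes 8.25% were higher and 7.3% lower. In vehicle acini 2 of the 30 lay below the median probe set. Agreement of 4 pairs in either direction was commoner among bright probe sets, at 20.5% in the brightest of 4 equal groups. PRDX1, a peroxiredoxin, differed by 0.29 ± 0.07 and TXNRD1, thioredoxin reductase, by 0.26 ± 0.11. Genes of endoplasmic reticulum and amino acid stress were lower for 4 of 27 and higher for none, with a median of -0.10. EIF2AK3, the stress kinase PERK, differed by -0.53 ± 0.12 and ATF4 by -0.14 ± 0.06. Of 31 p53 targets and DNA damage genes 3 were higher and 1 lower, and TP53I3, a p53-induced oxidoreductase, differed by 0.52 ± 0.14. Neither mitosis (36 genes) nor DNA replication genes (41) held a member at an unadjusted p under 0.05, beside 7% of all genes. In vehicle acini 20 of the 36 and 14 of the 41 lay below the median probe set. When 1 array or pair was left out, at most 1 mitosis gene was higher and 2 lower at that threshold. For DNA replication it was at most 1 each way. Among 11 cell cycle inhibitors, CDKN1B, which encodes p27, read 8.96, 9.16, 9.22 and 9.98 in vehicle and 8.61, 8.84, 8.89 and 9.56 in Aza acini. It was lower in every pair (-0.36 ± 0.09, limma adjusted p = 0.379), opposite in sign to CDKN1C. Of the 38 TSC and mTOR signalling genes, 5 were higher and 4 lower in 4 of 4 pairs, with a median of 0.05. RRAGD, a Rag GTPase that brings mTORC1 to lysosomes, differed by -1.65 ± 0.43 (-0.74 with a floor of 16) and DEPTOR, an mTOR inhibitor, by 0.31 ± 0.12.

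The median difference lay near 0 at every CG content of the promoter. Of 11555 protein-coding genes measured, 9437 (81.7%) had a promoter window of 300 bases in RefSeq, and they were divided into 4 equal groups by its number of CG. The median difference was 0.01, 0.01, 0.00 and 0.00 from the fewest to the most CG, and the share above 0 was 50.8%, 51.5%, 48.9% and 50.5%. Genes at an unadjusted p under 0.05 made up 3.56% (higher) and 3.05% (lower) of the group with the fewest CG, and 3.86% and 3.6% of the group with the most. The group with the fewest CG was dimmer, with a median level of 2.67 against 6.27 to 6.47 in the others.

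The pairs resembled each other more among bright probe sets. Across all probe sets the differences of 1 pair correlated with those of another, which shares no array with it, at -0.00 to 0.04. Within the dimmest of 4 equal groups these 6 correlations had a median of -0.00, and within the brightest a median of 0.17, from 0.06 to 0.34, the highest being between pairs 1 and 3. Probe sets are not independent replicates, and the values describe these arrays. Unadjusted p-values under 0.05 made up 5.04% of the dimmest and 10.2% of the brightest group. Differences of 1 or more were nearly all dim, 1095 of them in the dimmest group against 3 in the brightest. Probe sets of the same gene had the same sign in 54.4% of cases, and in 78.7% where both were at or above the median level and the first had an unadjusted p under 0.05.

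**Figure D5:**
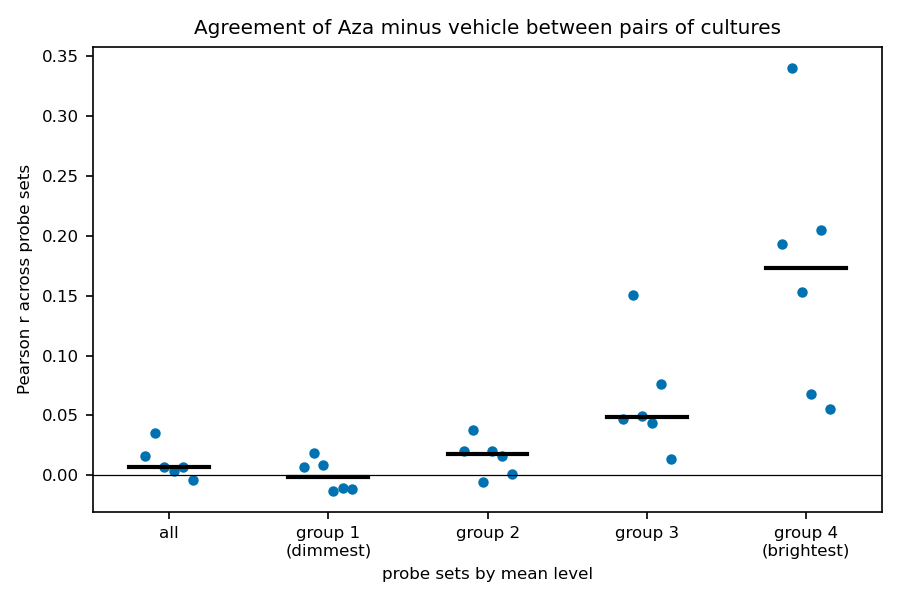
Each point is the Pearson correlation across probe sets (vertical axis) between the Aza minus vehicle differences of 1 pair of cultures and another, 6 points a column, with bars at the medians. Columns are all probe sets and 4 equal groups by mean level. The points lie around 0 in the dimmest group and between 0.06 and 0.34 in the brightest.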

How the data were processed

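Per the submitters' processing notes, the authors produced the values with GCOS, the scanner software of the array maker, whose version, algorithm and scaling are not given in the sources used here. The deposited values are linear intensities per probe set of 12 arrays, with 4 arrays each of vehicle, AGA and Aza acini, and replicates were not pooled. Values under 1 were set to 1, log2 transformed and quantile normalized over the 12 arrays, and 62 control probe sets were left out. limma 3.58.1 in R 4.3.3 fitted group and replicate number as a fixed block (lmFit, then eBayes with a variance trend and robust fitting, two-sided). p-values were adjusted by Benjamini and Hochberg over 22215 probe sets with a threshold of 0.05. The script was tested on simulated data. The arrays' number limits the precision.

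Same-numbered vehicle and Aza arrays were taken as pairs, from the numbers in the titles. Over all probe sets their deviations correlated at 0.06 to 0.26, over 0.1 in 2 of 4 pairs, and at or above the median level at 0.44 to 0.78, over 0.1 in 4 of 4. Named genes were every probe set called, the 12 largest differences each way among brighter probe sets with 1 direction in 4 pairs and an unadjusted p under 0.05, the 5 lowest p-values each way, genes with several such probe sets (up to 10 each way) and up to 4 members a list. List members were read on their brightest probe set. Genes, lists and tests were chosen with earlier results of these data known. Gene names came from the platform annotation: 19064 probe sets had 1 symbol, 1043 several and 2108 none, and none was named from several. Of the 19064, 19052 matched the RefSeq gene table.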

Additional observations from a re-analysis of the deposited data

Results flagged for a closer look

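Within the groups of 4 arrays, 34 probe sets named in the comparison were examined for an array far from the other 3, by Dixon's ratio of gap to range, and 5 of 68 groups had one. Chance alone gives about 1 in 20. The DCN probe set 201893_x_at was lowest in vehicle replicate 4 at 3.67, beside 4.93 to 4.99 in the other vehicle arrays. The locus DTX2P1-UPK3BP1-PMS2P11 read 3.16 in vehicle replicate 2. CACNG4 read 3.96 in Aza replicate 1. The probe set 201624_at, which has no single gene symbol, read 8.42 in vehicle replicate 4, beside 8.67 to 8.68 in the others. The second TSC2 probe set read 0.10 in Aza replicate 1.

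For 7 of these 34 probe sets the direct contrast of Aza against AGA acini had a limma adjusted p under 0.05, beside 0.86% of all probe sets. The naming rules drew on the Aza to vehicle differences, and the same Aza arrays enter this contrast. The count is therefore not independent support. Aza minus AGA was 1.34 for TSC2, 1.47 for DCN, 0.99 for S100P, 1.49 for CIDEC and 0.71 for KIZ. It was -1.36 for FAT2 and -2.69 for CBR3.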

How the results depend on the processing

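The main count was 1 probe set called by limma and 1434 at an unadjusted p under 0.05. Without the replicate block, so with the pairing set aside, 0 were called and 604 had an unadjusted p under 0.05. With neither block nor variance trend, a setting added after seeing the data, 2 were called (SLC29A1 and the unnamed 220899_at) and 726 had an unadjusted p under 0.05. With the block and no trend 0 were called (1200 unadjusted), and with a floor of 16 again 0 (1052 unadjusted). The 8 arrays alone gave 4 (TSC2, RIOK3 and 2 probe sets with several symbols) and median-centred arrays 3 (TSC2, RHOH and SLC5A3). Leaving out dim probe sets gave 891 unadjusted of 11108. On the deposited scale 1 was called, RHOH in place of TSC2. Higher values made up 51.5% of the unadjusted calls as reported, 64.6% with median-centred arrays and 35.7% without rescaling.

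Leaving out 1 array or 1 replicate number gave 0 to 7 called and 1117 to 1512 unadjusted. None were called without vehicle replicate 1, 3 or 4, Aza replicate 3, or the arrays of replicate 2 or 3, and 7 without Aza replicate 2. No value reversed its sign while called. Of the 215 probe sets chosen by the naming rules, a floor of 16 made the difference over 1.5 times smaller, or turned it, for 55, and leaving out some array or replicate number did so for 96. Dim probe sets varied more than bright ones: the standard deviation of the difference was 0.78 in the dimmest of 4 equal groups and 0.15 in the brightest.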
